A study of Anser cygnoides with 6 samples.

Results

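This account describes the splicing factors and RNA helicases expressed in the ovary of the swan goose, Anser cygnoides, in a reproductive and a broody stage. The genes were chosen by symbol, as every gene whose name begins with SF3A, SF3B, U2AF, SNRP, LSM, PRPF, SRSF, HNRNP, PTBP, MBNL, RBFOX, ESRP, DDX or DHX, with the germ cell helicase DDX4 and the antiviral sensor DHX58 left out. The rule found 105 of the 14696 genes in the deposited table, of which 39 are DDX or DHX helicases and 66 belong to splicing factor families. Of these, 103 had at least 1 FPKM in 3 or more of the 6 libraries and were tested, while RBFOX3 and DHX32 were not. FPKM are fragments scaled by transcript length and by the fragments mapped in the library, so levels can be set side by side between genes. For each gene the deposited transcripts were summed.

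The reproductive group (titled R) and the broody group (titled NR) hold 3 libraries each of total RNA from ovary tissue. All geese were 40 weeks old and were housed on a day with 11 h of light, the remaining 13 h being dark, per the labels' protocols. Those of the broody group had in addition undergone forced moulting and short illumination, so broodiness, moulting and any difference in light cannot be told apart. No label says whether a group's 3 libraries are from different birds, and p-values then measure only the spread between these samples, which may be technical. The sample labels give the tissue as ovary, but the design text speaks of oviduct. The ovarian markers AMH, FOXL2, GDF9 and ZP2 were present in all 6 libraries, at 16.4 FPKM or more, and the epithelial marker EPCAM at 28.2 FPKM or more, whereas the egg white genes on the oviduct list had no row under the names searched. Other markers on the granulosa and germ cell lists were low. INHA was at most 0.0472 FPKM and SYCP3 at most 0.503 FPKM in any library, and DDX4 and BMP15 fell to 0.583 and 0.906 FPKM in reproductive 2.

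The spliceosome removes introns from pre-mRNA. It is built from small nuclear RNAs, each carried in a particle (snRNP) with a ring of Sm or LSM proteins. U1 and U2AF mark the ends of the intron, the SF3A and SF3B proteins anchor U2 at the branch point, and PRPF proteins bring in and activate the U4, U5 and U6 particles. SRSF and HNRNP proteins bind exons and introns and shift the choice of splice sites, while PTBP, MBNL, RBFOX and ESRP proteins set choices that differ between tissues. DDX and DHX proteins are ATP-driven enzymes that remodel RNA in splicing, ribosome assembly, translation and decay. In the ovary the growing oocyte stores large amounts of mRNA, and the LSM14 proteins and DDX6 are known from stored mRNA particles of animal oocytes.

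The members' levels spanned a wide range. DDX5, a helicase of splicing and transcription, had the highest mean over the 6 libraries (236 FPKM), followed by DDX3X, a helicase of translation initiation (199 FPKM), and the Sm ring protein SNRPD1 (187 FPKM). DHX15, the helicase that takes the spliceosome apart, came next at 185 FPKM. Neighbours in this order overlapped over the 6 libraries. DHX32 lay at the other end, between 0 and 0.0448 FPKM. All members together made up 1.18 to 1.23% of the FPKM of a broody library and 1.26, 0.971 and 1.07% in reproductive 1 to 3, so the groups overlapped. The lowest sum was that of reproductive 2.

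The comparison asked which of these genes differ between the stages. The families moved in different directions. Subunits of the U2, U4/U6 and LSM particles were higher in broody ovaries wherever they passed the test, and so were both ESRP genes and most of the helicases that passed. MBNL1, MBNL3, PTBP2, SRSF11, HNRNPA3, DDX17, DHX15 and DHX29 were lower. Among the 103 tested members, 33 rose and 8 fell from the reproductive to the broody stage, by limma on log2(FPKM + 1) with Benjamini-Hochberg adjustment over all 11377 genes tested and a threshold of 0.05. That is 32.04% and 7.77% of the members, where 29.9% and 12.0% of all tested genes were called higher and lower, so the set as a whole lay close to the background. Calls in either direction took 39.8% of the members and 41.9% of all genes. The groups did not overlap for 65 members, 50 of them with broody higher and 15 with reproductive higher, or 63.1% against 59.5% of all tested genes (41.3% and 18.2% in these directions). Differences below are broody minus reproductive on the log2(FPKM + 1) scale, with their standard error (SE). The median difference was 0.27 over the members and 0.23 over all genes tested.

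The balance of higher and lower members depended on how libraries were scaled. Median-ratio scaling, which brings the median of all genes to 0.00, left 16 members higher and 18 lower, against 16.7% and 18.8% of all genes. Upper-quartile scaling gave 14 higher and 19 lower members, against 15.6% and 19.2% of all genes, and quantile normalization 17 and 18, against 19.3% and 17.0%. All 8 members called lower stayed called with median-ratio scaling and 10 more were called lower, while 16 of the 33 called higher stayed called. Without broody 1, and likewise without broody 2, no member passed (smallest adjusted p = 0.0570 and 0.0587), although 39 and 40 members then had an unadjusted p under 0.05. Of all genes tested, 0 were higher and 1 lower in each case. Every member call was thus lost without broody 1 or broody 2. These losses are not repeated where further losses are named below. By the top transcript of each gene in place of the sum, 25 of the 41 calls held. No member called with 6 libraries changed sign under any alternative run, while 15 members that were not called did with median-ratio scaling. Without broody 3 the counts were 17 higher and 4 lower, and without reproductive 1 they were 24 and 5.

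**Figure D1:**
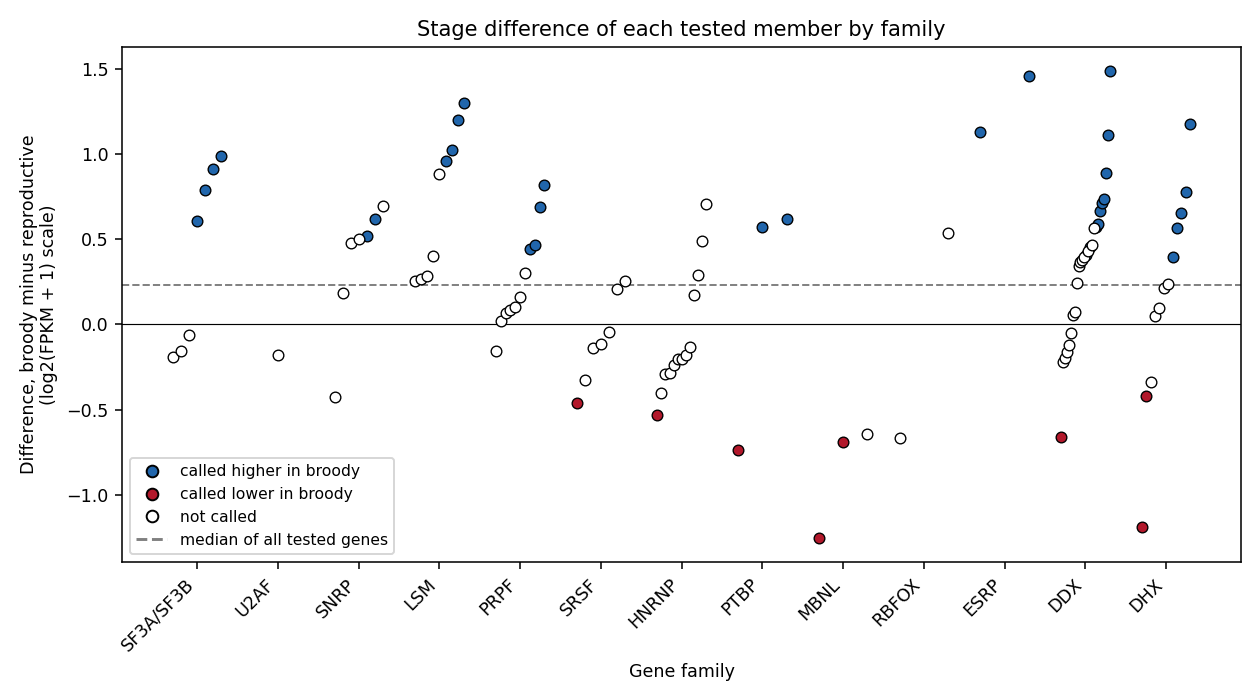
Difference between broody and reproductive libraries on the log2(FPKM + 1) scale (vertical axis) for each tested member, by family (horizontal axis), 1 point per gene. Filled points passed the threshold, and the dashed line is the median of all tested genes at 0.23. The called members of the SF3, SNRP, LSM, PRPF and ESRP families lie above 0, and those of the SRSF, HNRNP and MBNL families below it.

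Reproductive 2 stood apart from the other libraries. It was the lowest of the 6 libraries for 57.3% of the tested members and for 45.5% of all genes tested. The sum of the oocyte and germ cell markers was 141 FPKM in that library, 388 and 631 FPKM in reproductive 1 and 3, and 1129 to 1331 FPKM in broody libraries, and 10 of 10 tested markers of that list were higher in broody libraries. Smooth muscle markers ran the other way, with 7 of 7 lower and sums of 372 to 1069.7 FPKM in broody and 3464 to 7682 FPKM in reproductive libraries. Markers of theca and stroma were lower for 5 of 6, of macrophages for 6 of 6 and of endothelium for 4 of 5. The 5 of theca and stroma were COL1A1, COL1A2, COL3A1, DCN and OGN, while CYP17A1 was not called (difference -0.22, limma adjusted p = 0.742). Markers of proliferating cells were higher for 5 of 6, of granulosa for 2 of 6 and of epithelium for 2 of 3 found. Among the proliferation markers TOP2A ran the other way without passing (difference -0.73, limma adjusted p = 0.0503). Of all genes, 29.9% were called higher and 12.0% lower, so the granulosa share of 33.3% higher lay near the background. Most of these cell type lists thus differed between the same groups of libraries, some up and some down. The part of any of the lists in the differences of the members was not tested. In bulk tissue, fewer cells of a type and less RNA per cell cannot be told apart.

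**Figure D2:**
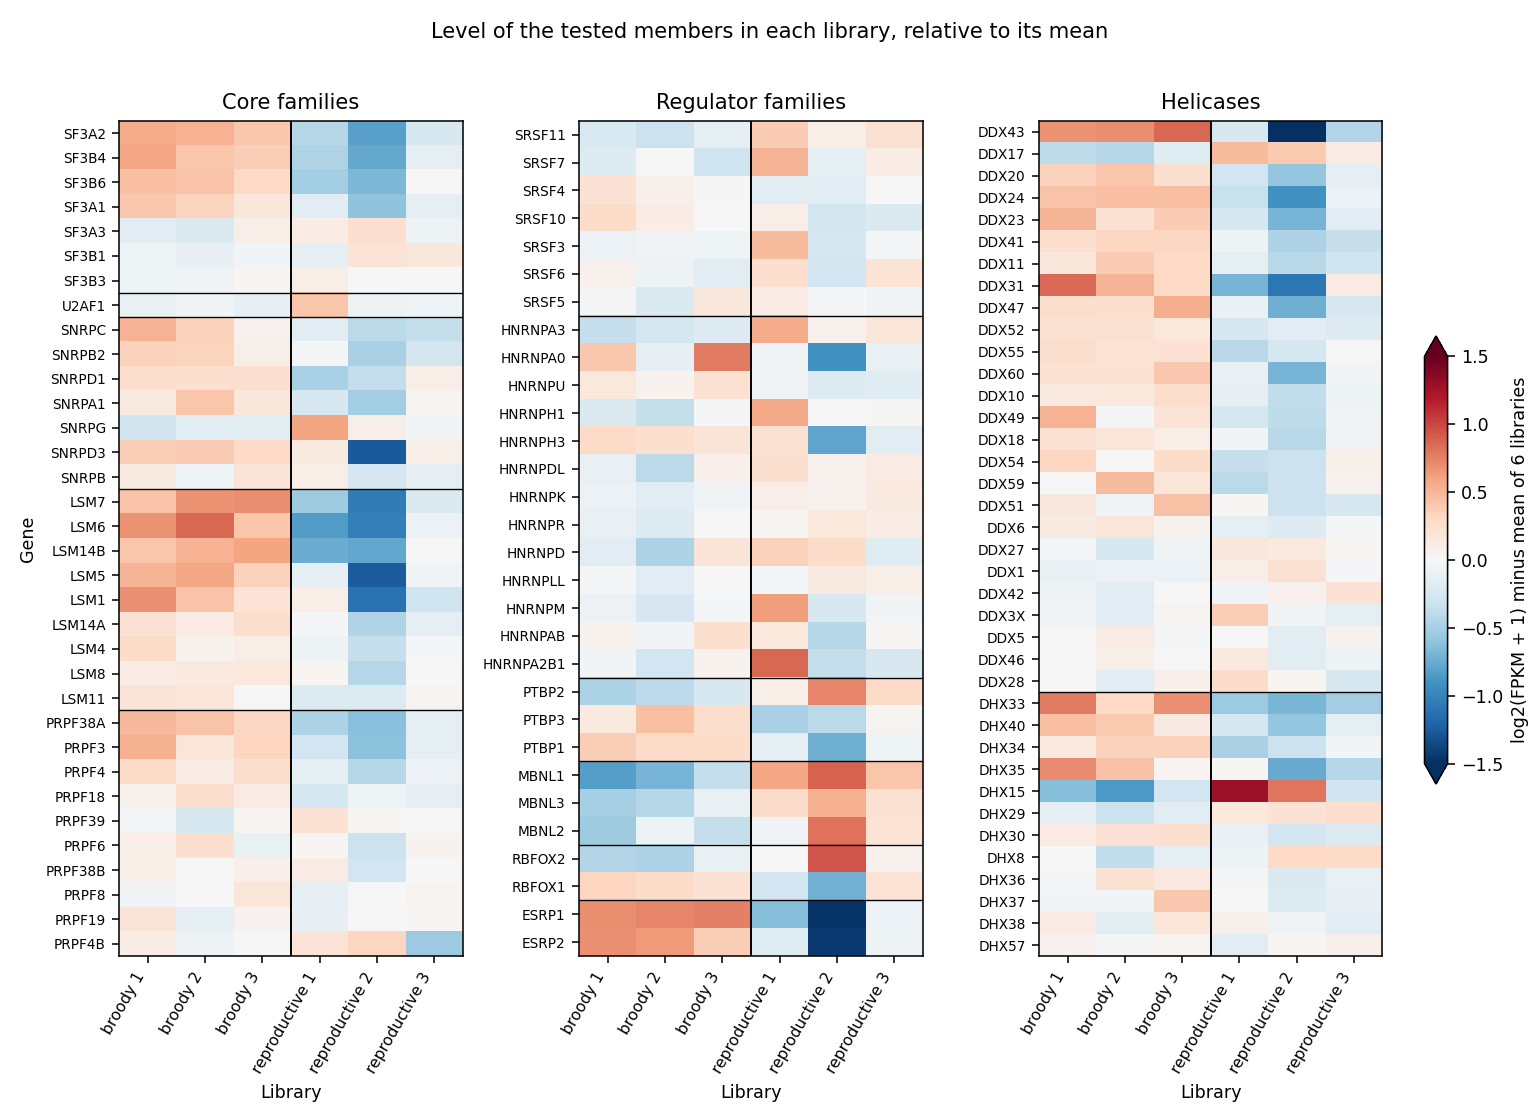
Level of the tested members, 1 of the PRPF genes left out (rows), in each library (columns), as log2(FPKM + 1) minus the mean of the 6 libraries, with red above and blue below that mean and families separated by lines. The 3 broody columns resemble each other, and the column of reproductive 2 holds the deepest blue for the LSM and ESRP genes and the deepest red for MBNL1, PTBP2 and RBFOX2.

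Proteins of the U2 particle split into a set that was higher and a set that passed in neither direction. Of the 7 SF3A and SF3B genes, 4 were higher and 0 lower in broody libraries, or 57.1% and 0%, where 29.9% and 12.0% of all genes were called. SF3A2, a zinc finger subunit of SF3A, stood at 36.5, 35.3 and 32.7 FPKM in broody 1 to 3 and 17.9, 13.4 and 20.5 FPKM in reproductive 1 to 3. The broody libraries lay above all reproductive ones, and the difference was 0.99 ± 0.17 (SE; adjusted p = 0.0154). SF3B4, which contacts the pre-mRNA beside the branch point, had 21.6, 19.1 and 18.6 FPKM in broody 1 to 3 and 10.002, 7.86 and 12.7 FPKM in reproductive 1 to 3 and rose by 0.91 (adjusted p = 0.0172). SF3B6, the small protein next to the branch point adenosine, rose by 0.79, from 64.8 ± 16.8 to 110.3 ± 6.33 FPKM (SD, n = 3). SF3A1, the scaffold of SF3A, had 37.4 ± 3.06 FPKM in broody and 24.4 ± 4.28 FPKM in reproductive libraries and rose by 0.61.

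The scaffold of SF3B behaved otherwise. SF3B1, which clamps the branch site and is the most abundant of the family, had 100.4, 96.02 and 102 FPKM in broody 1 to 3 and 94.6, 122 and 118 FPKM in reproductive 1 to 3, with overlap between the groups (difference -0.15 ± 0.15, SE, adjusted p = 0.411). SF3B3 and SF3A3 were not called either, with differences of -0.06 and -0.19, the latter turning to 0.19 with the top transcript alone. U2AF1, which reads the end of the intron and is the single U2AF gene here, had 11.3, 11.8 and 11.1 FPKM in broody 1 to 3 and 16.6, 11.5 and 11.6 FPKM in reproductive 1 to 3. It was not called (difference -0.18, adjusted p = 0.411, turning to 0.41 with the top transcript alone), and the groups overlapped. With median-ratio scaling SF3A1 missed the threshold (adjusted p = 0.0684), while SF3A2, SF3B4 and SF3B6 stayed called. With the top transcript alone, SF3A2 missed it (difference 0.70, adjusted p = 0.132). SF3B6 missed it without reproductive 1 (adjusted p = 0.0517).

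Among the 7 SNRP genes, 2 were higher and 0 lower, or 28.6% and 0%, where 29.9% and 12.0% of all genes were called. The share called higher was thus near that of all genes. Differences were positive for 6 of 7, and for 7331 of all 11377 genes tested. With median-ratio scaling 0 SNRP genes were higher and 1 lower, or 0% and 14.3%, against 16.7% and 18.8% of all genes. SNRPC, the U1 protein that helps to recognise the start of the intron, had 59.6, 52.4 and 43.1 FPKM in broody 1 to 3 and 36.4, 30.8 and 31.99 FPKM in reproductive 1 to 3. The groups did not overlap, and the rise was 0.62 ± 0.16 (SE; adjusted p = 0.0224). SNRPB2, a protein of the U2 particle, rose by 0.52 from 54.4 ± 8.89 to 77.99 ± 7.83 FPKM (SD, n = 3; adjusted p = 0.0386). Its partner on U2, SNRPA1, had 20.1 ± 2.32 against 14.3 ± 2.95 FPKM and missed the threshold (adjusted p = 0.0629). Neither rise passed with median-ratio scaling (adjusted p = 0.0893 for SNRPC and 0.193 for SNRPB2), and SNRPB2 also missed the threshold without broody 3, reproductive 2 or reproductive 3 (adjusted p = 0.0542, 0.0719 and 0.0646).

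None of the 4 Sm ring genes (SNRPB, SNRPD1, SNRPD3 and SNRPG) passed, with limma adjusted p of 0.329, 0.0585, 0.144 and 0.0987. SNRPB and SNRPD3 had differences of 0.18 and 0.70, and that of SNRPB turned to -0.064 with median-ratio scaling. SNRPD1, the most abundant of them, had 218, 216 and 218 FPKM in broody 1 to 3 and 130.1, 142 and 195 FPKM in reproductive 1 to 3. All broody values lay above the reproductive ones, but the difference of 0.50 missed the threshold with 6 libraries and passed without reproductive 3 (adjusted p = 0.0156). SNRPG, described like SNRPB and SNRPD3 after its values were seen, had 57.4, 63.1 and 63.1 FPKM in broody 1 to 3 and 108, 75.2 and 68.8 FPKM in reproductive 1 to 3 and passed as lower with median-ratio scaling (adjusted p = 0.0393). SNRPA1 passed without reproductive 3 too (adjusted p = 0.0275).

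The LSM family had the highest median difference of the families with more than 3 tested genes (0.88), and all 9 of its differences were positive. Of these, 4 passed as higher and 0 as lower, or 44.4% and 0%, where 29.9% and 12.0% of all genes were called. LSM6, a subunit of both the nuclear ring on U6 and the cytoplasmic ring of mRNA decay, was the most abundant, with 205, 233 and 171 FPKM in broody 1 to 3 and 71.4, 62.4 and 120.0 FPKM in reproductive 1 to 3. Every broody library exceeded every reproductive one, and the difference was 1.30 ± 0.26 (SE; adjusted p = 0.0172). LSM7, of the same rings, had 23.6, 28.1 and 28.7 FPKM in broody 1 to 3 and 11.6, 7.82 and 14.8 FPKM in reproductive 1 to 3 and rose by 1.20 (adjusted p = 0.0164). LSM5, a further subunit of both rings, rose by 0.96 from 36.5 ± 14.6 to 67.6 ± 5.44 FPKM (SD, n = 3), with reproductive 2 lowest at 19.7 FPKM. The LSM5 call was lost with median-ratio scaling (adjusted p = 0.0738), without broody 3 (adjusted p = 0.0746) and without reproductive 1 (adjusted p = 0.0504).

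LSM14B, known in mouse and frog oocytes as a protein of stored mRNA, had 52.5, 56.6 and 59.2 FPKM in broody 1 to 3 and 22.8, 22.4 and 38.9 FPKM in reproductive 1 to 3. It was higher in all broody libraries, by 1.02 ± 0.22 (SE; adjusted p = 0.0179, and 0.0220 with median-ratio scaling). With the top transcript alone the difference was 1.37 and the call was lost (adjusted p = 0.0610). The paralog LSM14A, found in processing bodies, had 24.7 ± 1.33 against 18.6 ± 2.98 FPKM and was not called (adjusted p = 0.0670), and its difference of 0.40 turned to -0.037 with the top transcript alone. LSM1, which marks the cytoplasmic ring, had 41.8 ± 7.24 against 23.4 ± 9.65 FPKM (adjusted p = 0.0507), and LSM8, which marks the nuclear ring, had 21.8 ± 0.395 against 18.1 ± 3.18 FPKM (adjusted p = 0.195). These genes, LSM14A, LSM1 and LSM8, were added for their roles after their values were seen. LSM11, of the U7 particle that cuts histone mRNA, and LSM4 were not called, with differences of 0.25 and 0.28. Summed over the 9 genes, LSM FPKM was 473, 500.1 and 427 in broody 1 to 3 and 244, 173 and 306 in reproductive 1 to 3.

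Of the 11 PRPF genes, 4 were higher and 0 lower, or 36.4% and 0%, where 29.9% and 12.0% of all genes were called. PRPF38A, needed for activation of the spliceosome, had 27.2, 26.1 and 24.03 FPKM in broody 1 to 3 and 13.6, 12.02 and 17.4 FPKM in reproductive 1 to 3, with no overlap and a rise of 0.82 ± 0.16 (SE; adjusted p = 0.0172). PRPF3 and PRPF4, which ride on the U4/U6 particle, rose by 0.69 and 0.44. PRPF3 went from 15.7 ± 2.67 to 25.8 ± 3.36 FPKM and PRPF4 from 17.7 ± 2.32 to 24.3 ± 1.57 FPKM (SD, n = 3). PRPF8, the scaffold of the catalytic centre and the most abundant PRPF gene, had 42.1, 43.4 and 49.6 FPKM in broody 1 to 3 and 39.2, 43.4 and 44.8 FPKM in reproductive 1 to 3, with overlap (difference 0.08, adjusted p = 0.625, turning to -0.17 with median-ratio scaling).

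PRPF4 is the weakest of these 3 calls. With median-ratio scaling its adjusted p was 0.216, while PRPF38A and PRPF3 stayed called (0.0195 and 0.0423). Leaving out broody 3, reproductive 1 or reproductive 2 gave 0.110, 0.0651 and 0.0810 for PRPF4, and PRPF3 had 0.0513 without broody 3.

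Over the 35 genes of the SF3A, SF3B, U2AF, SNRP, LSM and PRPF families, 14 were higher and 0 lower by limma (0 lower at an unadjusted p under 0.05), and the groups did not overlap with broody higher for 22, or 62.9%, against 41.3% of all tested genes. Called higher were 40% of them, against 29.9% of all genes. With median-ratio scaling the counts were 8 higher and 1 lower, or 22.9% and 2.86%, against 16.7% and 18.8% of all genes. The median difference of 0.44 became 0.20.

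SRSF and HNRNP genes are the general regulators of exon choice. Of 20 tested, 0 were higher and 2 lower, or 0% and 10%, where 29.9% and 12.0% of all genes were called. The lower share was near that of all genes, and the median difference was -0.16. At an unadjusted p under 0.05 limma had 1 higher, HNRNPA0. With median-ratio scaling 0 were higher and 6 lower, or 0% and 30%, against 16.7% and 18.8% of all genes. SRSF11, an SR-related protein that binds near the end of introns, had 16.3, 15.2 and 17.4 FPKM in broody 1 to 3 and 25.4, 20.5 and 22.7 FPKM in reproductive 1 to 3. The reproductive libraries lay above all broody ones, and the difference was -0.46 ± 0.14 (SE; adjusted p = 0.0334). That call was lost without broody 3, reproductive 1 or reproductive 3 (adjusted p = 0.0625, 0.0805 and 0.0521).

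The other SRSF genes named here were not called. SRSF3, the smallest SR protein and the most abundant of the family, had 100.1, 103 and 101 FPKM in broody 1 to 3 and 148, 89.3 and 104 FPKM in reproductive 1 to 3. The broody values were nearly level, and reproductive 1 and 2 lay on either side of them (difference -0.14 ± 0.20, SE, adjusted p = 0.593). SRSF7, an adaptor of mRNA export, had 8.59 ± 1.05 FPKM in broody and 11.2 ± 2.79 FPKM in reproductive libraries (SD, n = 3; adjusted p = 0.207). SRSF4, known for a long arginine-serine tail, had 21.7 ± 1.68 against 18.6 ± 1.39 FPKM (adjusted p = 0.220), and its difference of 0.21 turned to -0.04 with median-ratio scaling. SRSF10, which represses splicing when dephosphorylated, had 14.1 ± 1.43 against 11.8 ± 1.84 FPKM (adjusted p = 0.222).

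HNRNPA3, an RNA-binding protein of the A/B group, was the HNRNP gene that passed, with 22.9, 24.3 and 25.7 FPKM in broody 1 to 3 and 43.6, 30.7 and 33.6 FPKM in reproductive 1 to 3. It was lower in every broody library, by 0.53 (adjusted p = 0.0339), and the call was lost without broody 3 or reproductive 1 (adjusted p = 0.0662 and 0.0706). HNRNPA genes are close paralogs and can share reads. HNRNPU, a chromatin and RNA scaffold with the highest level of the family, had 120.2, 111 and 126 FPKM in broody 1 to 3 and 104, 93.7 and 94.7 FPKM in reproductive 1 to 3. It was higher in all broody libraries without passing (difference 0.29, adjusted p = 0.105). HNRNPH1, which binds runs of G, had 58.8 ± 7.02 against 78.98 ± 18.8 FPKM (SD, n = 3; adjusted p = 0.123), and passed as lower with median-ratio scaling (adjusted p = 0.0409). HNRNPA0 had 15.8 ± 5.11 against 9.27 ± 3.03 FPKM (adjusted p = 0.0925), with overlapping groups. Without reproductive 1, HNRNPH3 passed as higher (adjusted p = 0.0475). HNRNPA2B1 and HNRNPM, named after their values were seen, stood out through reproductive 1, with 57.04, 23.9 and 25.9 FPKM and 36.5, 19.6 and 22.7 FPKM in reproductive 1 to 3.

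The tissue-regulated families moved in opposite directions. Muscleblind proteins (MBNL), which bind YGCY motifs and drive adult splicing patterns in mammalian muscle, passed as lower in broody ovaries for 2 of 3. That is 66.7%, where 12.0% of all genes were called lower. With median-ratio scaling 3 of 3 were lower, against 18.8% of all genes. MBNL1 had 15.1, 16.5 and 21.2 FPKM in broody 1 to 3 and 41.6, 51.5 and 37.1 FPKM in reproductive 1 to 3. The reproductive libraries were all at least 37.1 FPKM and the broody ones at most 21.2 FPKM, a difference of -1.26 ± 0.18 (SE; adjusted p = 0.0126). MBNL3 had 8.80, 9.35 and 11.9 FPKM in broody 1 to 3 and 15.8, 19.1 and 15.2 FPKM in reproductive 1 to 3 and fell by 0.69 (adjusted p = 0.0202). MBNL2 had 8.33, 11.8 and 9.52 FPKM in broody 1 to 3 and 12.1, 22.6 and 14.5 FPKM in reproductive 1 to 3. It lay lower in all broody libraries, but its difference of -0.64 missed the threshold (adjusted p = 0.0648, 0.0415 with median-ratio scaling and 0.0470 without reproductive 1). Smooth muscle markers, given above, were lower in the same libraries, and their part in the MBNL differences was not tested.

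Polypyrimidine tract binding proteins moved apart. PTBP1, a widespread splicing repressor that in mammalian cells keeps its paralog PTBP2 low, had 115, 108 and 108 FPKM in broody 1 to 3 and 80.9, 53.2 and 85.1 FPKM in reproductive 1 to 3, a rise of 0.62 ± 0.19 (SE; adjusted p = 0.0395). PTBP3 had 49.2, 61.1 and 53.3 FPKM in broody 1 to 3 and 31.3, 33.2 and 45.7 FPKM in reproductive 1 to 3 and rose by 0.57 (adjusted p = 0.0373). PTBP2, best known from neurons, went the other way, with 6.45, 6.93 and 7.82 FPKM in broody 1 to 3 and 10.01, 16.3 and 11.7 FPKM in reproductive 1 to 3. It fell by 0.74 (adjusted p = 0.0248, and 0.0214 with median-ratio scaling). In none of the 3 genes did the groups overlap, as in 59.5% of all tested genes. The ratio of PTBP1 to PTBP2, which library scaling cannot change, was 17.8, 15.6 and 13.8 in broody 1 to 3 and 8.08, 3.26 and 7.28 in reproductive 1 to 3. With median-ratio scaling PTBP1 and PTBP3 were not called (adjusted p = 0.104 and 0.120), nor were they without broody 3 (0.0837 and 0.0807) or reproductive 1 (0.0530 and 0.0959), and PTBP3 had 0.0750 without reproductive 2.

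RBFOX and ESRP proteins regulate exons of nerve and muscle and of epithelia. RBFOX2, the widely expressed member, had 14.3, 13.98 and 18.3 FPKM in broody 1 to 3 and 19.5, 38.9 and 20.6 FPKM in reproductive 1 to 3. All broody values lay below the reproductive ones, and reproductive 2 was far above the rest (difference -0.66, adjusted p = 0.0778). RBFOX1 had 5.33, 5.11 and 4.87 FPKM in broody 1 to 3 and 3.15, 2.07 and 4.84 FPKM in reproductive 1 to 3, with reproductive 3 just below the lowest broody library (difference 0.54, adjusted p = 0.102, and 0.0216 without reproductive 3), and the difference turned to -0.21 with the top transcript alone. Neither passed with 6 libraries. RBFOX3, the neuronal member, had 0.286, 0.383 and 0.404 FPKM in broody 1 to 3 and 0.128, 0.109 and 0.0408 FPKM in reproductive 1 to 3 and was too low to be tested.

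Both epithelial splicing regulators were higher in broody ovaries, where 29.9% of all genes were called higher. ESRP1 had 26.6, 27.2 and 27.5 FPKM in broody 1 to 3 and 9.90, 5.13 and 14.96 FPKM in reproductive 1 to 3. The broody libraries agreed closely while the reproductive ones spread, with reproductive 2 lowest, and the rise was 1.46 ± 0.32 (SE; adjusted p = 0.0182, and 0.0214 with median-ratio scaling). ESRP2 had 18.1, 17.4 and 14.2 FPKM in broody 1 to 3 and 9.46, 3.38 and 10.2 FPKM in reproductive 1 to 3 and rose by 1.13 (adjusted p = 0.0377). Its call was lost without broody 3 (adjusted p = 0.0657) and with median-ratio scaling (0.0633). EPCAM, an epithelial surface protein, had 156, 178 and 159 FPKM in broody 1 to 3 and 73.8, 28.2 and 88.1 FPKM in reproductive 1 to 3. Within the reproductive group that is the order of ESRP1, with reproductive 2 lowest, as it was for 52.0% of all genes tested. FOXJ1, of the same marker list, had 20.2, 20.3 and 16.3 FPKM in broody 1 to 3. In reproductive 1 to 3 it had 12.1, 3.27 and 10.5 FPKM, which is not that order. The part of epithelial cells in the ESRP differences was not tested. CDH1, a further epithelial marker, was at most 1.65 FPKM in any library and did not share the order of ESRP1 either.

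**Figure D3:**
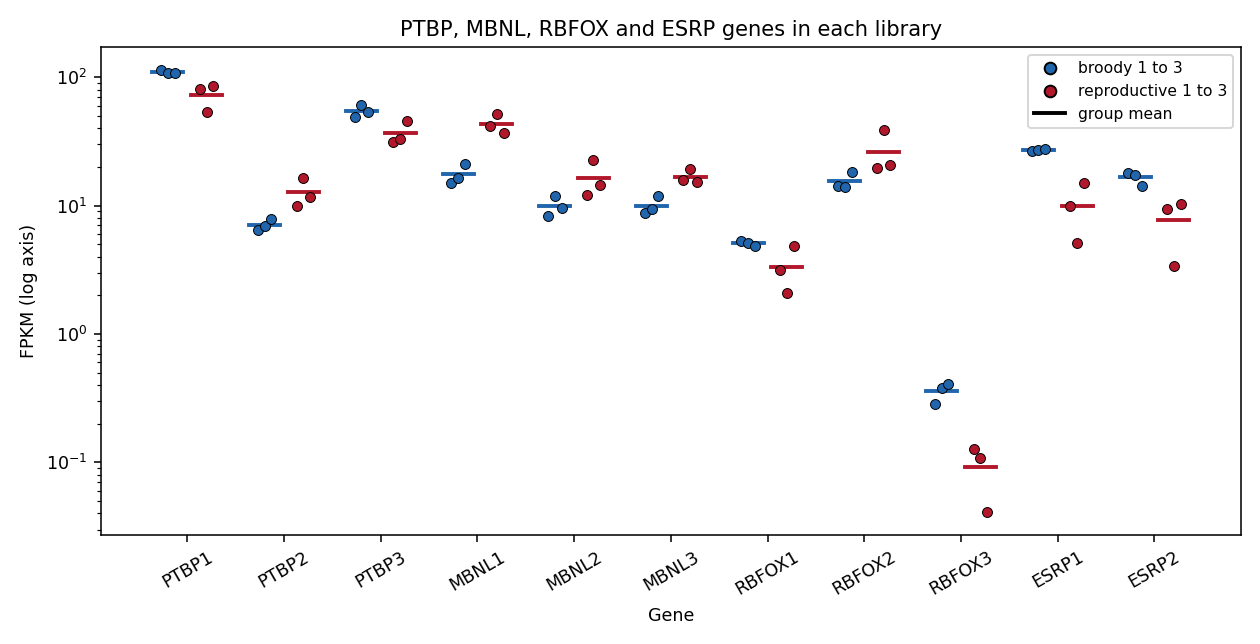
FPKM (vertical log axis) of the PTBP, MBNL, RBFOX and ESRP genes in each library, with bars at the group mean of 3 libraries. MBNL1, MBNL2, MBNL3, PTBP2 and RBFOX2 are lower in the 3 broody libraries, and PTBP1, PTBP3, RBFOX1, RBFOX3, ESRP1 and ESRP2 are higher. The groups overlap in none of the 11 genes, where 59.5% of all tested genes did not overlap. RBFOX3 was too low to be tested, and RBFOX1 is separated only by 4.87 FPKM in broody 3 against 4.84 FPKM in reproductive 3.

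Ratios between related genes compare them within a library. These pairs were chosen after their values were seen, and they carry no test. MBNL1 to MBNL3 was 1.72, 1.77 and 1.79 in broody 1 to 3 and 2.64, 2.69 and 2.44 in reproductive 1 to 3, so MBNL1 was the more reduced of the pair. DDX5 to DDX17, helicases that can act in 1 complex, was 6.17, 6.99 and 5.32 in broody and 3.36, 3.20 and 4.52 in reproductive 1 to 3. LSM14B to LSM14A was 2.10, 2.43 and 2.29 against 1.08, 1.46 and 2.001, with reproductive 3 just below the broody range. ESRP1 to ESRP2 overlapped, with 1.47, 1.56 and 1.93 against 1.05, 1.52 and 1.47.

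**Figure D4:**
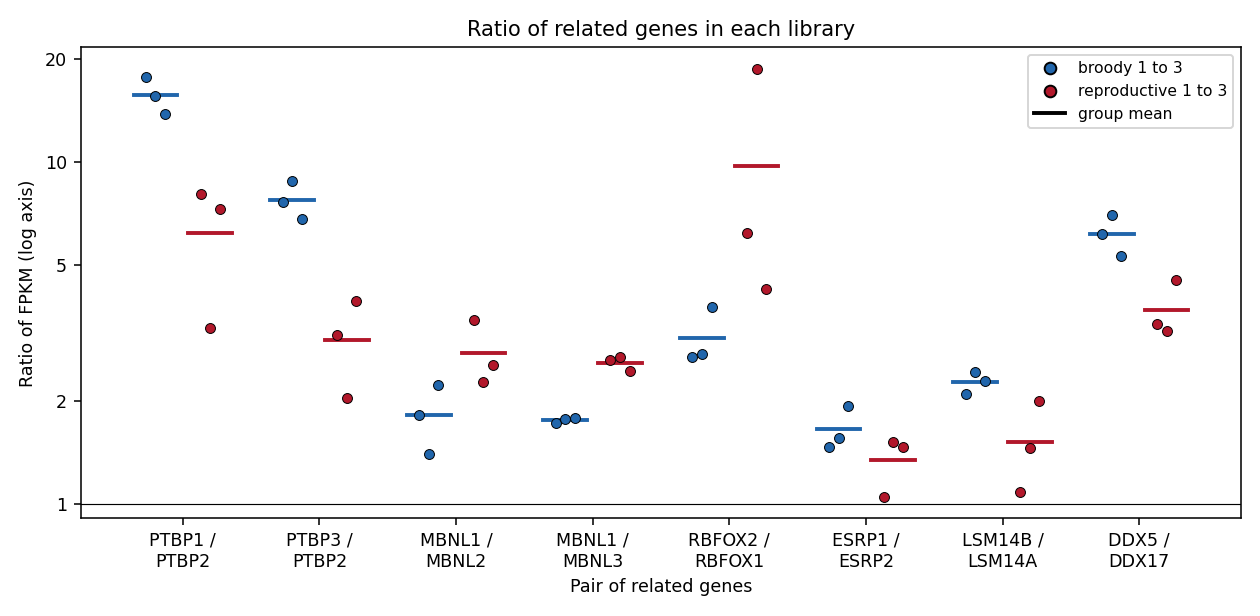
Ratio of the FPKM of related genes (vertical log axis) in each library, with bars at the group mean of 3 libraries. PTBP1 over PTBP2, PTBP3 over PTBP2, LSM14B over LSM14A and DDX5 over DDX17 are higher in the 3 broody libraries, MBNL1 over MBNL2 or MBNL3 and RBFOX2 over RBFOX1 are lower, and ESRP1 over ESRP2 overlaps.

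Among 38 helicases tested, 15 rose and 3 fell in the broody stage (39.5% and 7.89%, where 29.9% and 12.0% of all genes were called). With median-ratio scaling 7 were higher and 7 lower, or 18.4% in each direction, close to the 16.7% and 18.8% of all genes. The DDX genes counted 10 higher and 1 lower of 26, and the DHX genes 5 higher and 2 lower of 12. The higher DDX genes were 4 without broody 3 and 7 without reproductive 1 or reproductive 2, and without broody 3, reproductive 1 or reproductive 2 no DHX gene was lower.

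Helicases of ribosome assembly, which work in the nucleolus, were higher for 6 of 13 and lower for 0, or 46.2% and 0%, where 29.9% and 12.0% of all genes were called. With median-ratio scaling 3 were higher and 1 lower, or 23.1% and 7.69%, against 16.7% and 18.8% of all genes. DHX33, a nucleolar helicase linked to ribosomal RNA synthesis, had 39.9, 28.2 and 37.3 FPKM in broody 1 to 3 and 15.3, 13.8 and 15.5 FPKM in reproductive 1 to 3. Each broody library was at least 28.2 FPKM and each reproductive one at most 15.5 FPKM, a rise of 1.18 ± 0.16 (SE; adjusted p = 0.0125, 0.0116 with median-ratio scaling). DDX24, of the large ribosomal subunit, had 44.5, 45.1 and 45.4 FPKM in broody 1 to 3 and 25.8, 16.9 and 30.9 FPKM in reproductive 1 to 3 and rose by 0.89 (adjusted p = 0.0201). DDX31, a nucleolar helicase named after its values were seen, had 67.1, 52.9 and 45.5 FPKM in broody 1 to 3 and 22.3, 16.8 and 40.03 FPKM in reproductive 1 to 3 and rose by 1.11 (adjusted p = 0.0273). Reproductive 3 lay close to the broody range for DDX31, and the call was lost without reproductive 1 or 2 (adjusted p = 0.0706 and 0.0509). Summed over the 13 genes, FPKM was 366, 319 and 342 in broody 1 to 3 and 235, 204 and 263 in reproductive 1 to 3.

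Helicases of the spliceosome were mixed, with 3 of 10 higher and 2 lower. That is 30% and 20%, against 29.9% and 12.0% of all genes, so the higher share lay at the background. After median-ratio scaling the shares became 10% (1 gene) and 40% (4 genes), against 16.7% and 18.8% of all genes. DHX15, which releases the spent spliceosome, had 101, 86.8 and 129 FPKM in broody 1 to 3 and 386, 276 and 129 FPKM in reproductive 1 to 3. Reproductive 1 and 2 were far above the rest, while reproductive 3 matched broody 3, so the groups overlapped although the difference of -1.19 ± 0.38 (SE) passed (adjusted p = 0.0419). It did not pass without broody 3 (0.0630), reproductive 1 (0.1003) or reproductive 2 (0.0904). DDX17, a helicase of exon choice and microRNA processing, had 38.03, 36.8 and 43.8 FPKM in broody 1 to 3 and 69.7, 65.7 and 54.1 FPKM in reproductive 1 to 3 and fell by 0.66 (adjusted p = 0.0185), with no overlap. Its near relative DDX5 had 235, 257 and 233 FPKM in broody 1 to 3 and 234, 210.4 and 244 FPKM in reproductive 1 to 3, which overlapped (difference 0.07, adjusted p = 0.705, turning to -0.18 with median-ratio scaling). DHX35, found in the catalytic spliceosome, rose by 0.78 from 10.6 ± 3.16 to 18.8 ± 4.51 FPKM (SD, n = 3), and missed the threshold without reproductive 2 (0.0904), without reproductive 3 (0.0767) and with median-ratio scaling (0.109). DDX23, the U5 helicase that releases U1, was named after its values were seen and rose by 0.73 from 10.5 ± 2.15 to 17.9 ± 1.90 FPKM (adjusted p = 0.0212). Without broody 3 its adjusted p was 0.0536.

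Of the 6 genes listed as cytoplasmic helicases of translation and decay, 0 were higher and 1 lower, or 0% and 16.7%. Of all genes, 29.9% and 12.0% were called. DHX34, named below for its part in nonsense-mediated decay, was not on that list and was called higher. DHX29, which helps the small ribosomal subunit through structured leaders, had 7.69, 6.62 and 7.43 FPKM in broody 1 to 3 and 9.64, 10.02 and 10.4 FPKM in reproductive 1 to 3. The groups were separate and the fall was 0.42 (adjusted p = 0.0423), but the call was lost whichever library was left out. The adjusted p was 0.0877 without broody 3 and 0.0665, 0.0671 and 0.0791 without reproductive 1, 2 or 3. DDX6, the decay and storage helicase, and DDX3X were named after their values were seen. DDX6 had 60.1 ± 2.69 FPKM in broody and 50.5 ± 3.11 FPKM in reproductive libraries (SD, n = 3; adjusted p = 0.133), and its difference of 0.25 turned to -0.0065 with median-ratio scaling. DDX3X had 189.8 ± 13.9 against 209 ± 41.8 FPKM (adjusted p = 0.602).

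Among the remaining helicases, DDX43, known in mammals from germ cells and tumours, had the highest difference of the 103 members. It stood at 18.5, 18.9 and 21.3 FPKM in broody 1 to 3 and 9.39, 3.17 and 8.04 FPKM in reproductive 1 to 3. The broody libraries were all above 18 FPKM and reproductive 2 was lowest, a rise of 1.49 ± 0.33 (SE; adjusted p = 0.0182, 0.0246 with median-ratio scaling). DAZL, a germ cell marker, had 90.1, 32.2 and 183 FPKM in reproductive 1 to 3 and 307, 298 and 347 FPKM in broody 1 to 3. Reproductive 2 was the lowest of its group for both genes, as for 52.0% of all genes tested. DAZL was higher in reproductive 3 than in reproductive 1, unlike DDX43, and so were most tested markers of the oocyte and germ cell list. BMP15 and TDRD9 of that list were lower in reproductive 3 than in reproductive 1, as DDX43 was. The part of germ cells in the DDX43 difference was not tested. DDX20, the helicase of the SMN complex that loads Sm rings onto small nuclear RNA, had 25.9, 27.2 and 24.1 FPKM in broody 1 to 3 and 16.4, 13.2 and 18.2 FPKM in reproductive 1 to 3 and rose by 0.67 (adjusted p = 0.0189). DHX40 rose by 0.65 from 25.4 ± 4.05 to 40.3 ± 4.71 FPKM, and DHX34, which takes part in nonsense-mediated decay, by 0.56 from 1.36 ± 0.369 to 2.47 ± 0.264 FPKM (SD, n = 3). DHX40 passed with 6 libraries and with median-ratio scaling (limma adjusted p = 0.0221 and 0.0483). It missed the threshold with upper-quartile scaling (0.0513), quantile normalization (0.0503) and the replicate block (0.0526). DHX34 missed the threshold with median-ratio scaling (0.0860) and without broody 3, reproductive 1 or reproductive 2 (0.08996, 0.0916 and 0.0735).

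Splicing genes outside these families were read from a list of 133 symbols, of which 109 had a row and 106 were tested. Of these, 33 were higher and 7 lower, or 31.1% and 6.60%, against 29.9% and 12.0% of all genes. Median-ratio scaling gave 21 and 15, or 19.8% and 14.2%, against 16.7% and 18.8% of all genes. The higher share was thus near that of all genes and the lower share below it. Without broody 1 or broody 2 none of them passed, and without broody 3 the higher ones were 20. SMN complex and snRNP assembly genes were higher for 5 of 9 and lower for 0 (4 and 1 with median-ratio scaling). That is 55.6% and 0%, against 29.9% and 12.0% of all genes. GEMIN2, an SMN partner, rose by 0.88 from 33.6 ± 10.5 to 60.9 ± 2.02 FPKM (SD, n = 3). Minor spliceosome genes counted 3 of 8 higher and 0 lower with either scaling, or 37.5% and 0%. Of all genes, 29.9% were higher, and 16.7% with median-ratio scaling. The minor spliceosome genes were led by SNRNP48, which rose by 1.05 (limma adjusted p = 0.0167). The Prp19 complex and catalytic step genes counted 7 of 20 higher and 0 lower (5 and 1 with median-ratio scaling), or 35% higher, close to the 29.9% of all genes. The other U2, U5 and tri-snRNP genes counted 6 of 15 and 0, or 40% and 0% (3 and 0 with median-ratio scaling, or 20% and 0%). Exon junction and SR-related genes counted 4 of 14 higher and 1 lower, or 28.6% and 7.14% (2 and 3 with median-ratio scaling, or 14.3% and 21.4%). The higher shares were near those of all genes. The 1 that fell was TRA2B, a regulator that binds exon enhancers (by 0.59, limma adjusted p = 0.0222). The SR protein kinases SRPK1 and SRPK2 went apart, from 35.3 ± 10.5 to 58.02 ± 0.931 FPKM and from 31.3 ± 6.31 to 18.2 ± 2.40 FPKM.

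Other tissue-linked regulators were divided, with 6 of 33 higher and 5 lower, or 18.2% and 15.2%, against 29.9% and 12.0% of all genes. Median-ratio scaling gave 3 and 9, or 9.09% and 27.3%, against 16.7% and 18.8% of all genes. QKI, a regulator of smooth muscle and glial splicing, fell by 0.76 from 37.6 ± 5.90 FPKM, and CELF2, an antagonist of MBNL proteins on several exons in mammals, fell by 0.96 from 16.7 ± 3.78 FPKM. RBM24, a muscle splicing factor, rose by 1.15 to 35.7 ± 6.80 FPKM, and ELAVL2, an RNA stabiliser of neurons and germ cells, rose by 1.02 to 14.5 ± 1.65 FPKM (SD, n = 3). The genes of this list that are named here were chosen after their values were seen. The adjusted p of these regulators was 0.0178, 0.0182, 0.0166 and 0.0181 in the same order, by limma.

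Transcript use is a readout apart from the summed level. Of the members, 69 have a single transcript in the table and 36 have more. The share of each transcript in its gene's FPKM was tested for 82 transcripts of 29 members, among 9522 transcripts in all, and 0 member transcripts passed with 6 libraries by limma (smallest adjusted p = 0.164), where 0.578% of all did. At an unadjusted p under 0.05 there were 11, or 13.4% against 8.99% of all transcripts. The same transcript led in both stages for 32 of the 36 genes, and the exceptions were DDX60, RBFOX2, SNRPD3 and U2AF1. The test has low power: on simulated data it recovered 0 of 100 transcripts shifted by 20 percentage points and 32 of 100 shifted by 40.

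The largest of these shifts, given as values, was in SNRPD3, an Sm ring protein. Its transcript XM_013173618.1 held 0.294, 0 and 4.44% of the gene's FPKM in broody 1 to 3 and 100, 100 and 18.5% in reproductive 1 to 3. Reproductive 3 sided with the broody libraries. Of its 3 transcripts 2 were tested, and neither passed with 6 libraries (limma adjusted p = 0.454). Both passed without reproductive 3 (adjusted p = 0.00242), but that is the library that ran against the difference. The shares of the 2 mirror each other, so they are 1 result. SF3A3, whose summed level was not called, split its FPKM between 2 transcripts, and XM_013184246.1 held 23.5, 20.3 and 29.6% in broody and 43.8, 41.8 and 42.3% in reproductive 1 to 3. The groups were separate, with narrow spread in the reproductive libraries (adjusted p = 0.232). DDX60, an antiviral helicase of low level, had 15.8, 25.8 and 10.8% against 52.6, 69.5 and 50.7% for XM_013175268.1 (adjusted p = 0.164).

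The regulators RBFOX2, MBNL2 and HNRNPAB, the last a protein of mRNA transport, complete the 6 members with the smallest p. In RBFOX2, XM_013180873.1 held 33.5, 36.8 and 35.1% in broody and 10.2, 19.6 and 24.2% in reproductive 1 to 3. In MBNL2, XM_013174401.1 held 46.7, 41.7 and 29.9% against 14.9, 17.1 and 25.6%. In HNRNPAB, XM_013175918.1 held 35.4, 45.8 and 38.5% against 23.4, 17.03 and 32.7%. None passed, with limma adjusted p between 0.365 and 0.505. The broody shares lay above the reproductive ones in each, which the choice by smallest p favours. Shares of transcripts that overlap over most of their length rest on how the authors' quantification divided shared fragments.

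**Figure D5:**
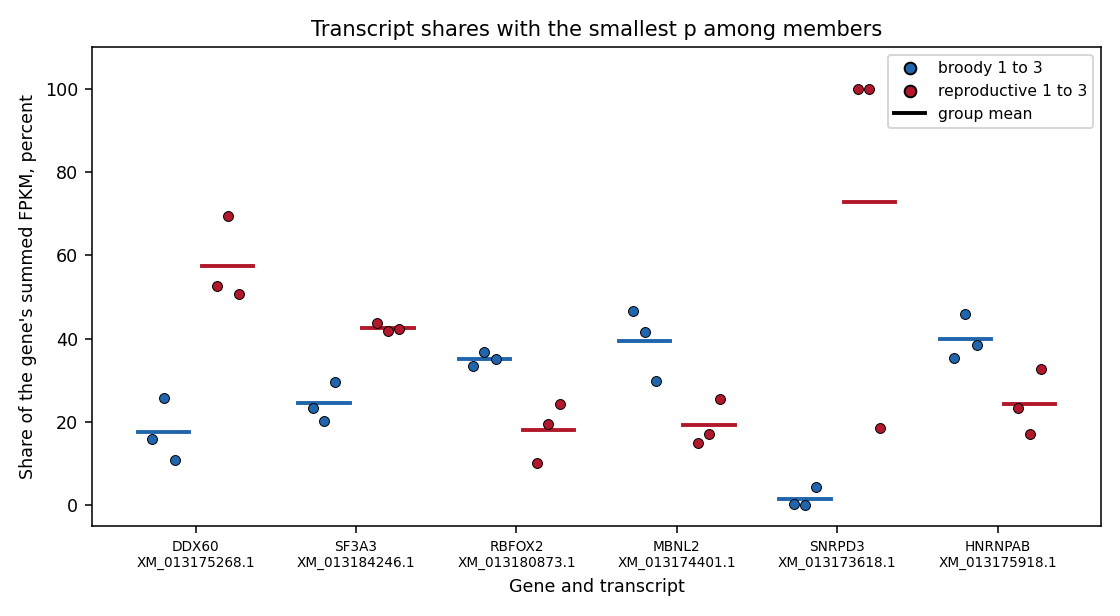
Share of the gene's summed FPKM, in percent (vertical axis), held by 1 transcript of each of the 6 members with the smallest p in the share test, per library, with bars at the group mean. The groups are separate in all 6, which the choice by smallest p favours. Reproductive 3 of SNRPD3 lies at 18.5% while reproductive 1 and 2 lie at 100%.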

How the data were processed

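RNA from 6 ovary samples of the goose (3 reproductive, 3 broody) had been sequenced from Illumina TruSeq libraries, per the labels' protocols. The authors deposited 1 table of FPKM per transcript for all samples (33089 transcripts of 14696 genes). HISAT2 and StringTie are named in the submitters' processing notes, while versions, genome build, annotation and use of strand were not given in the sources used here. FPKM keep no depth, so the depth of each library is unknown and no interval from counts is given. Per the file header, the deposited values are FPKM alone, and their sum ranged from 319866 to 346625 per library. Genes that overlap and near-identical paralogs may share reads.

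Transcripts were summed per gene ID. Symbols came from the table (6611 genes) or, where it had none, by gene ID from RefSeq names of the assembly Taihu_goose_T2T_genome (5742 genes), and 50 and 55 of the 105 members were named in these ways. No coordinates were used. Genes with at least 1 FPKM in 3 or more libraries (11377) were tested on log2(FPKM + 1), a scale that understates changes of low genes, with limma 3.58.1 in R 4.3.3 (eBayes with trend, two-sided, Benjamini-Hochberg adjustment, threshold 0.05). Transcript shares, of genes with at least 1 FPKM in each library, were tested with limma likewise, without the trend. Tested on simulated data with the 11377 genes, the gene test recovered 58 of 100 genes changed by 1 and 91 of 100 changed by 2 on the log2 scale, with 5.10% of the calls false. Only these genes were changed in the simulation, while 41.9% of all genes were called in the data. The adjustment is stricter when few genes change, so these shares do not carry over to the real fit.

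Named members were, in each larger family, up to 4 with the smallest p, the one with the highest mean, and up to 3 called against the majority, besides all PTBP, MBNL, RBFOX and ESRP genes and the 6 members with the smallest p for a transcript share. The counts include 1 PRPF gene that is not reported here by itself. Members and lists were chosen with earlier results of these data known. Alternatives covered the pseudocount, filters, scalings, variance model, threshold, replicate block, naming, the top transcript in place of the sum, and each library left out.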

Additional observations from a re-analysis of the deposited data

How the results depend on the processing

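The pseudocounts 0.1 and 5, the mean filter of 5 FPKM, the robust and the trendless variance models moved no count of members by over 1.5 times. Scaling did: members higher and lower were 16 and 18 with median-ratio scaling, 17 and 18 with quantile normalization and 14 and 19 with upper-quartile scaling, against 33 and 8. All genes higher were then 1897, 2198 and 1776, all genes lower 2136 with median-ratio and 2189 with upper-quartile scaling, other splicing genes higher 21, 19 and 18 and lower 15, 14 and 15, and families with more members higher than lower 5, 5 and 5 in place of 8. Named members that turned were PRPF8 (-0.17, -0.17 and -0.18 with median-ratio, quantile and upper-quartile scaling), SRSF4 (-0.036, -0.013 and -0.049), DDX6 (-0.0065, -0.012 and -0.020), HNRNPAB (-0.082, -0.073 and -0.095), SNRPB (-0.064, -0.067 and -0.077) and DDX5 (-0.18 with median-ratio and -0.20 with upper-quartile scaling), none of them called. By the top transcript alone, 21 members were higher, U2AF1 turned to 0.41, RBFOX1 to -0.21, SF3A3 to 0.19, LSM14A to -0.037 and HNRNPA2B1 to 0.017 among the 7 members that turned. With the names of the table only, 15 members were higher and 4 lower. With no filter, 4 other splicing genes were lower. At a threshold of 0.01, 0 members and 0 other splicing genes were called in either direction, 3 of all genes were higher and 15 lower, 0 families had more higher than lower, and 26 transcript shares of all genes passed. The cause of these changes was not tested.

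Leaving out 1 library gave 0 to 36 members higher and 0 to 6 lower, 0 to 3773 of all genes higher and 1 to 1152 lower, and 0 to 37 other splicing genes higher and 0 to 7 lower. Families with more higher than lower were 0 to 9, member transcripts called 0 to 2, and the difference of SRSF3 ran from -0.29 without reproductive 2 to 0.068 without reproductive 1, where HNRNPA2B1, HNRNPM and DDX3X also turned (0.21, 0.019 and 0.034). Deviations of libraries with the same replicate number had correlations of 0.11, -0.16 and -0.20 for numbers 1 to 3. Those with different numbers ran from -0.18 to 0.29. With 3 libraries per group these values cannot decide whether the numbers pair them. With the replicate block, members higher and lower were 21 and 5, all genes higher 2225, other splicing genes lower 4 and transcript shares called 0 in place of 55. Requiring a gene FPKM of 5 left 29 transcript shares.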
